A study of Mus musculus with 14 samples.

Results

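Genes widely used as markers of epithelial-mesenchymal transition (EMT) were followed in RNA from the retinal pigment epithelium (RPE) of rd1 mice with and without added Nrf2. They were Vim, Acta2, Tagln, Fn1, Snai1, Snai2, Zeb1, Zeb2, Twist1 and S100a4, 10 of the 34452 mouse genes in the deposited table, taken as a given list and matched by Ensembl identifier. The rd1 mouse (FVB/N strain) lacks Pde6b function and loses its rods early. At postnatal day 20, each of 7 rd1 mice gave 1 library from an eye injected with both AAV-Best1-Nrf2 and AAV-Best1-GFP (Nrf2) and 1 library from the other eye, injected with AAV-Best1-GFP only (control). All 14 eyes therefore carried the GFP vector, and the human Best1 promoter, active in the RPE, drove both transgenes. The Nrf2 vector had an AAV8 capsid and the GFP vector a 7m8 capsid. Nrf2 eyes received the Nrf2 vector on top of the GFP vector, and so a higher total vector dose by the study's methods. The transgene and the added vector, with its capsid and dose, therefore cannot be told apart. Libraries are named below by group and mouse number. The comparison asks whether markers of dedifferentiation of the RPE differed between the eyes of a mouse.

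In EMT, epithelial cells loosen their junctions, give up apical-basal polarity, rebuild their cytoskeleton around vimentin and contractile actin, and deposit a fibronectin-rich matrix. The transcription factors of the Snai, Zeb and Twist families repress epithelial genes such as Cdh1 and can drive this program, often downstream of TGF beta. RPE cells that leave their monolayer in proliferative retinal disease are known to take up parts of it. None of the 10 genes is restricted to such cells: vascular smooth muscle, pericytes, fibroblasts, glia, leukocytes and basal keratinocytes express several of them in healthy tissue. Nrf2 itself is a transcription factor of the antioxidant response.

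Total counts ranged from 16548349 in Nrf2 2 to 50543008 in Nrf2 7, and levels below are counts scaled to a library total of 1e+06 (CPM). The vector transcript, human NFE2L2, lay between 1163 and 8711 CPM in Nrf2 eyes and between 1.12 and 1163 CPM in control eyes. The overlap came from the libraries labelled control 3 and Nrf2 4, at 1163 CPM each, so the library labelled control 3 went against its label. Nrf2 4 was the lowest of the Nrf2 eyes, where the next, Nrf2 5, was at 4577 CPM. A list of 8 Nrf2 target genes summed to 2486 CPM in control 3 and 2488 CPM in Nrf2 4. That sum was at least 7447 CPM in the other Nrf2 eyes and at most 915.5 CPM in the other control eyes. Control 3 and Nrf2 4 were also the closest of all 91 pairs of libraries. Their root mean square log2 difference was 0.401, against 0.572 for the next pair and 1.06 for the median pair. Values without mice 3 and 4 are given where they change a call. RPE genes were abundant in every library, with 18 of them summing to between 21150 and 42760 CPM, although endogenous Best1 averaged only 1.80 CPM. Keratins and other genes of the ocular surface epithelium took from 0.274% of the counts in control 4 to 6.88% in control 6, and were lower in the Nrf2 eye of 6 of 7 mice. In bulk tissue, fewer cells of a type and less RNA per cell cannot be told apart.

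All 10 genes passed the filter on low counts, and 0 of 10 differed between Nrf2 and control eyes in the paired quasi-likelihood test of edgeR (adjusted p under 0.05 over 16289 genes), where 3.43% of all genes tested did. At an unadjusted p under 0.05 there was 1 of 10, Vim, where 18.1% of all genes tested passed, and Vim was also the 1 gene of the 10 called by DESeq2 (background 11.9%) and by voom with sample quality weights (background 15.9%). The median log2 fold change of the 10 genes was -0.01, beside -0.04 for all genes tested, with 5 fitted above 0 and 5 below. Ranges of CPM in Nrf2 and control eyes overlapped for all 10, and 1.79% of all genes tested had ranges that did not overlap. Exact two-sided sign-flip permutation tests were run on the 7 paired differences of each gene, and the smallest p that 7 pairs allow is 0.0156. None of the 10 reached 0.05 on CPM.

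**Figure D1:**
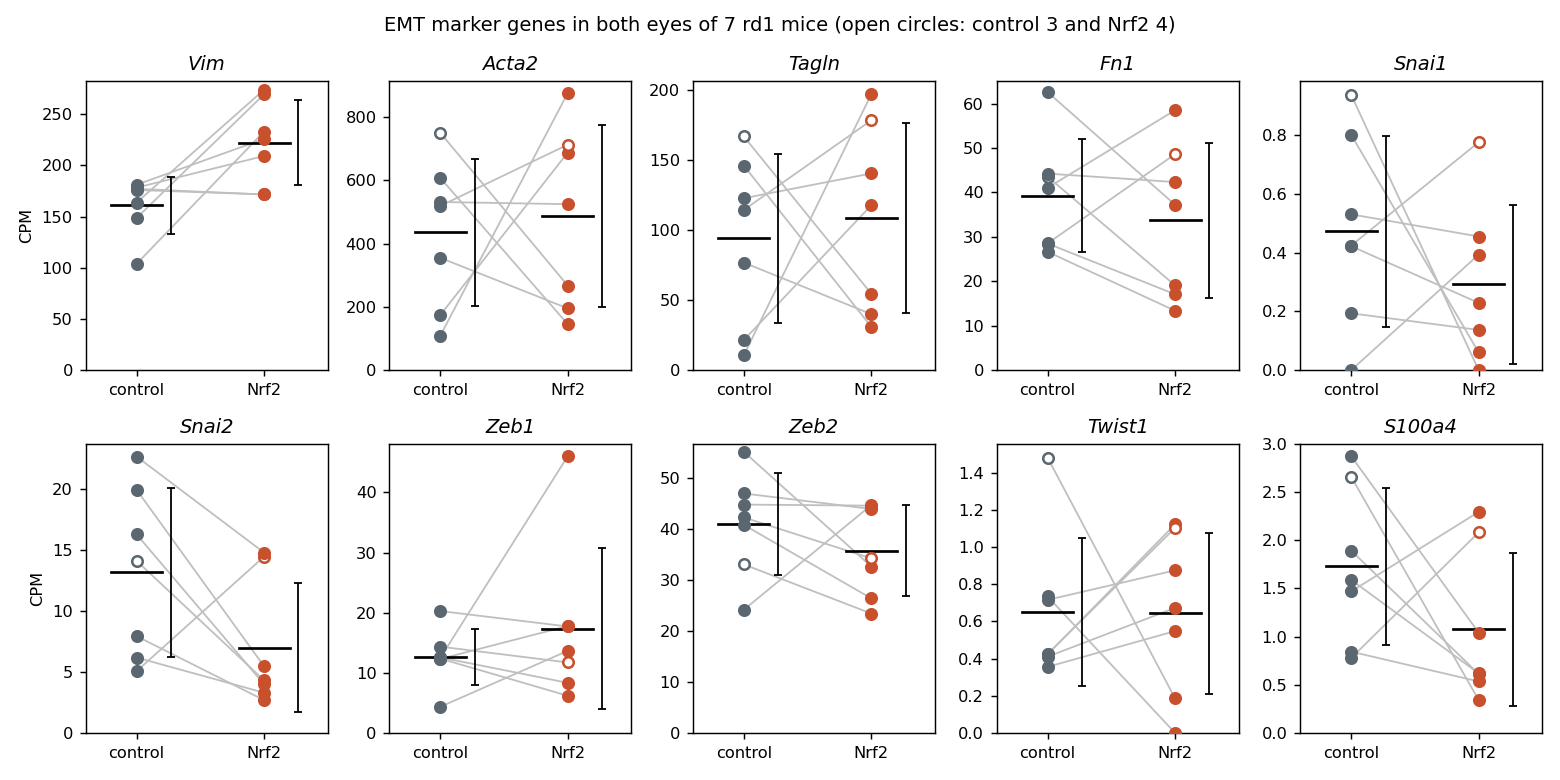
Level of each of the 10 genes in CPM (linear axis from 0) in control and Nrf2 eyes. Each point is 1 library and grey lines join the eyes of a mouse, horizontal bars are group means and the brackets beside them span 1 SD on either side, cut at 0 where needed (n = 7). Open circles are the libraries labelled control 3 and Nrf2 4. For Vim, 5 of the 7 Nrf2 libraries lie above every control library, Acta2 and Tagln lines cross in both directions, and Snai2 is lower in the Nrf2 eye of 6 of 7 mice.

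Vim (ENSMUSG00000026728, chromosome 2, 13573927 to 13582826, plus strand, GRCm38) encodes vimentin, the main intermediate filament protein of mesenchymal cells, which Müller glia and endothelium also hold in quantity. It lay at 181, 149, 178, 177, 176, 104 and 164 CPM in control eyes 1 to 7, and at 226, 269, 209, 172, 172, 233 and 274 CPM in Nrf2 eyes 1 to 7. Thus 5 of the 7 Nrf2 libraries stood above every control library, while Nrf2 4 and Nrf2 5 stood inside the control range, and control 6 was the lowest of all 14. The fitted log2 fold change was 0.59 (SE 0.14, 95% interval 0.27 to 0.92), with an adjusted p of 0.0640. On CPM, the Nrf2 eye had more Vim in 5 of 7 mice (exact sign-flip p = 0.0625). With the trimmed mean of M-values (TMM) scaling that the fit uses, the count was 7 of 7 (exact sign-flip p = 0.0156, the smallest possible). That scale was chosen for the sign-flip test after seeing the data, and neither sign-flip p was adjusted for the 10 genes. Relative to the library total alone, without TMM, the fitted change was 0.46 and the adjusted p 0.159. That choice of scale moved the median of all genes from -0.04 to -0.17.

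The call on Vim turned on the analysis. It passed without the term for mouse (0.60, adjusted p 0.0135, background 6.75%), in DESeq2 (0.61, adjusted p 0.00421), in voom (0.52, adjusted p 0.0246) and without mouse 4 (0.67, adjusted p 0.0223, background 12.2%). Without mice 3 and 4 it was 0.72 with an adjusted p of 0.0592 (background 4.5%). Across the 14 libraries, Vim was highest where epithelial markers were lowest, with Pearson r = -0.90 (Spearman rho = -0.87) against the summed CPM of 22 epithelial genes, -0.78 within control and -0.93 within Nrf2 eyes. Against the summed CPM of 18 genes of RPE identity, r was 0.16 (rho 0.03), 0.47 within control and -0.20 within Nrf2 eyes. Such values share the library total as denominator. With the level of surface epithelium genes as a further term, the fitted change of Vim was 0.44 (SE 0.12, adjusted p 0.129, background 1.94%). That term was chosen after seeing the data. Its list was lower in the Nrf2 eye of 6 of 7 mice, so the fit cannot fully separate that level from treatment. Against the summed CPM of 14 genes of Müller glia and astrocytes, r was 0.81 (rho 0.74), 0.85 within control and 0.85 within Nrf2 eyes. It was 0.43 over both groups once the 2 libraries farthest from the median of that list were left out. Leaving out the 2 farthest for their own list gave -0.80 for the epithelial genes and 0.70 for the Nrf2 target genes. The glial sum was led by Apoe and Prdx6, and 10 of its 14 genes were fitted below 0. Against the summed CPM of the 8 Nrf2 target genes, r was 0.77 (rho 0.79), 0.47 within control and 0.61 within Nrf2 eyes. Genes whose pattern was among those most like that of Vim, by r of log2 CPM over the 14 libraries among 12038 genes, were Wnt5a (0.97) and Nol3 (0.96).

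Acta2 and Tagln encode smooth muscle alpha-actin and transgelin, contractile proteins of smooth muscle and of myofibroblasts. Their expression in smooth muscle is known to depend on serum response factor, which binds CArG boxes. The 250 bases upstream of the RefSeq start (GRCm38.p6) of Acta2, and of Myl9, the regulatory light chain gene whose pattern was most like that of Tagln, are shown because these genes moved together from library to library. Capitals mark the matches to a CArG box, CC, 6 bases of which at most 1 is not A or T, then GG, searched on both strands. Acta2 lies on the minus strand (chr19:34255374-34255623) and Myl9 on the plus strand (chr2:156775214-156775463). The GENCODE gene used below for Acta2 starts farther upstream than the RefSeq start, at 34255590. Both matches in Acta2 therefore lie inside that gene, and their distances hold for the RefSeq start only.

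Acta2: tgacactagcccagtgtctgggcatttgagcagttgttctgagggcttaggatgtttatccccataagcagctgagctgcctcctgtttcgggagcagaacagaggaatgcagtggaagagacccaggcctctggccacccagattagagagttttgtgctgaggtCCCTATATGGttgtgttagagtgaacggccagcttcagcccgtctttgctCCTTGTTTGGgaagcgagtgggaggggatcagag

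Myl9: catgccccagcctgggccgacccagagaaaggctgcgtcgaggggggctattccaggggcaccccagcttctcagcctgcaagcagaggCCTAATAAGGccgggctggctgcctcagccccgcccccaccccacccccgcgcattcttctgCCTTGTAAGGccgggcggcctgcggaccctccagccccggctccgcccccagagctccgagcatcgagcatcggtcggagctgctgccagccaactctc

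Each window held 2 matches, starting 84 and 34 bases before the start in Acta2, and 161 and 99 bases before it in Myl9. The window of Wif1, the gene whose pattern was most like that of Acta2, held 0 matches. Such a match was present in 8.59% of 32851 promoter windows of this length. Of the 10 EMT genes, 6 were in the promoter table (Vim, Acta2, Snai1, Zeb2, Twist1 and S100a4), and Acta2 was the 1 with a CArG match. TGACNNNGC, the core of the antioxidant response element that Nrf2 binds, was found on either strand in 10.2% of windows and, among these 6 genes, in Twist1 alone.

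Acta2 (ENSMUSG00000035783, chromosome 19, 34241090 to 34255590, minus strand, GRCm38) was the most abundant of the 10. In control eyes 1 to 7 it stood at 355, 174, 750, 519, 608, 108 and 531 CPM, and in Nrf2 eyes 1 to 7 at 195, 687, 267, 712, 146, 875 and 525 CPM. The groups covered nearly the same range. Within mice the difference went both ways, from -2.06 in mouse 5 to 3.01 in mouse 6 on the log2 scale, and the Nrf2 eye was higher in 3 of 7. The fitted log2 fold change was 0.23 (SE 0.60, 95% interval -1.13 to 1.59, adjusted p 0.877). Tagln (ENSMUSG00000032085, chromosome 9, 45929619 to 45936058, minus strand) lay at 76.9, 21.6, 167, 114.5, 146, 10.7 and 123 CPM in control eyes 1 to 7, and at 40.0, 118, 54.6, 179, 30.9, 197 and 141 CPM in Nrf2 eyes 1 to 7. The same libraries were low for both genes, control 2 and control 6 and Nrf2 1, 3 and 5. For Tagln the fitted change was 0.39 (SE 0.76, 95% interval -1.33 to 2.11, adjusted p 0.827). A change of 1 on the log2 scale in either direction lies inside both intervals and was not detectable for these genes. The fitted direction of both turned negative in voom and without mouse 2 or mouse 6.

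Acta2 and Tagln followed each other closely (r = 0.97 and rho = 0.96 over 14 libraries, and r = 0.998 for the 7 paired differences). Both also followed the summed CPM of 16 other genes of smooth muscle and mural cells. That sum was led by Myh11, the smooth muscle myosin heavy chain, and Smtn, smoothelin. It ran from 320 to 913 CPM in control and from 374 to 1110 CPM in Nrf2 eyes. Against it, r was 0.96 for Acta2 and 0.93 for Tagln, and 0.99 and 0.98 for the paired differences. The sum does not stand for each of the 16 genes. Rgs5 and Kcnj8, pericyte genes among them, had fitted changes of -1.35 and -1.59. Without the libraries labelled control 3 and Nrf2 4, the r of Acta2 and Tagln with the smooth muscle sum were 0.95 and 0.92. Both genes also followed the summed CPM of 14 fibroblast genes, with r = 0.75 for each over 14 libraries. For the paired differences these were 0.91 and 0.93, so the likeness was not particular to the smooth muscle and mural list. With the smooth muscle level as a further term, the SE of the fitted change fell to 0.14 for Acta2, with a change of 0.34 (adjusted p 0.243), and to 0.16 for Tagln, with a change of 0.59 (adjusted p 0.0978). The background in that fit was 3.19%. That term was chosen after seeing the data, and given its r with both genes a smaller SE had to follow. The fitted values with it are changes at a given smooth muscle level, not the whole change between eyes. The genes most like Acta2 were Wif1 (r = 0.98), Tagln (0.97) and Myl9 (0.97), and those most like Tagln were Myl9 (0.99), Wif1 (0.98) and Lrrn4cl (0.98).

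**Figure D2:**
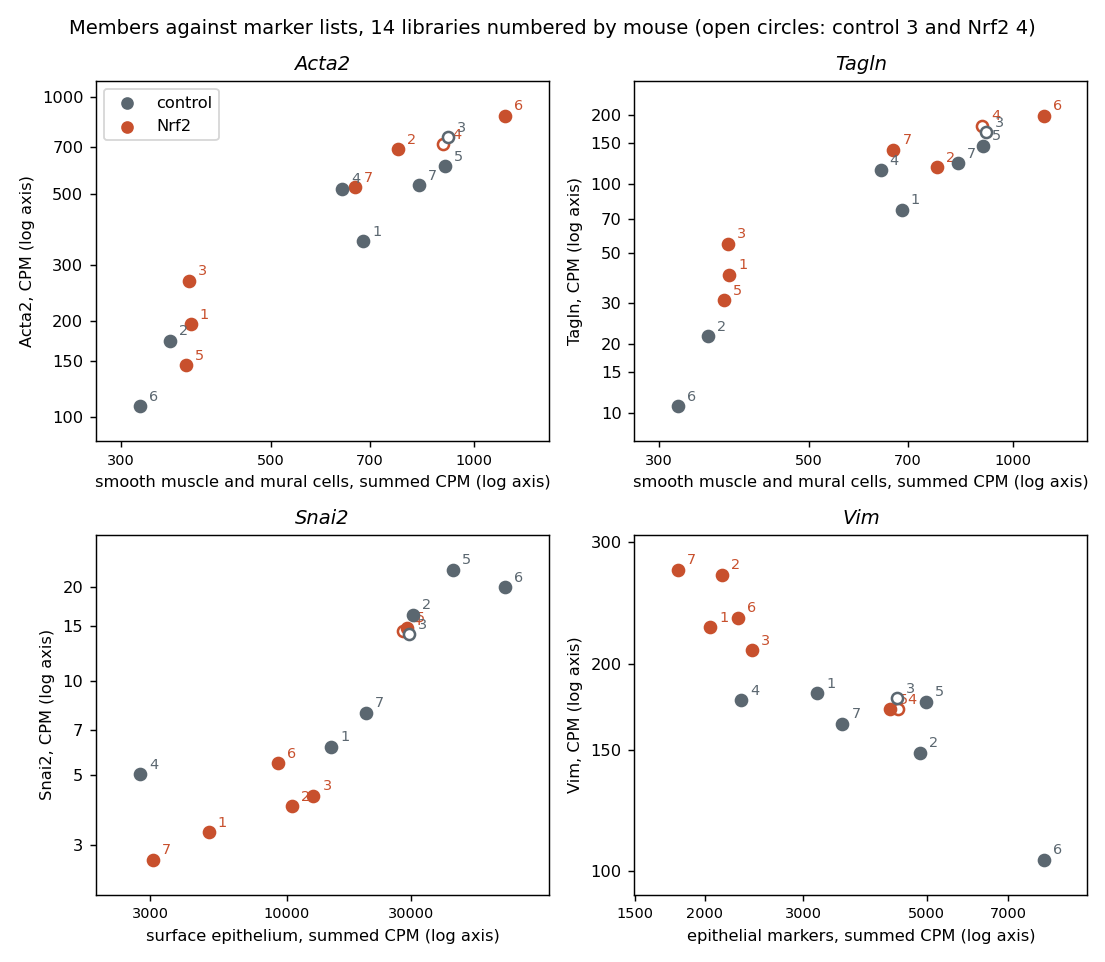
Acta2 and Tagln against the summed CPM of smooth muscle and mural cell genes, Snai2 against that of surface epithelium genes, and Vim against that of epithelial markers (log axes). Each point is 1 library, numbered by mouse and coloured by group, and open circles are the libraries labelled control 3 and Nrf2 4. Acta2, Tagln and Snai2 rise along their lists in both groups (r = 0.96, 0.93 and 0.90 over 14 libraries), and Vim falls along its list (r = -0.90).

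Fn1 and S100a4 are further markers of mesenchymal cells, fibronectin being a matrix glycoprotein and S100a4 a small calcium-binding protein of fibroblasts and leukocytes. Fn1 had a lowest, median and highest level of 26.7, 41.0 and 62.6 CPM in control eyes and of 13.4, 37.2 and 58.5 CPM in Nrf2 eyes. It was lower in the Nrf2 eye of 5 of 7 mice, and 3 Nrf2 libraries (1, 3 and 7) stood below every control library while the other 4 lay inside the control range. Its fitted log2 fold change was -0.23 (SE 0.23, 95% interval -0.76 to 0.31, adjusted p 0.643). S100a4 had few counts, 11 to 89 per library. Its lowest, median and highest level was 0.778, 1.59 and 2.87 CPM in control and 0.342, 0.618 and 2.30 CPM in Nrf2 eyes, lower in the Nrf2 eye of 5 of 7 mice. The fitted change of S100a4 was -0.74 (SE 0.54, 95% interval -1.98 to 0.50, adjusted p 0.503).

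Fn1 and S100a4 varied together (r = 0.81 over 14 libraries, 0.81 within each group), and both were above their control median in the libraries labelled control 3 and Nrf2 4. A list of 12 genes of Schwann cells and melanocytes, most of whose counts came from Mbp and Mal, was also highest there, at 4360 CPM in control 3 and 4236 CPM in Nrf2 4, and its r was 0.85 with S100a4 and 0.75 with Fn1. Mal is also expressed by epithelia. The part of these cells in the levels of S100a4 and Fn1 was not tested. The genes most like Fn1 were Ubald1 (0.94), Zyx (0.93), which encodes the focal adhesion protein zyxin, and Arhgap1 (0.92), and those most like S100a4 were Itch (0.94), Tbc1d25 (0.93) and Prep (0.93).

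Snai2 (Slug, ENSMUSG00000022676, chromosome 16, 14705852 to 14709385, plus strand), a zinc finger repressor of Cdh1 that basal keratinocytes also express, was the most abundant factor of its family here. It lay at 6.18, 16.3, 14.1, 5.05, 22.7, 19.9 and 7.94 CPM in control eyes 1 to 7, and at 3.30, 3.99, 4.32, 14.5, 14.8, 5.47 and 2.69 CPM in Nrf2 eyes 1 to 7. The Nrf2 eye was the lower in 6 of 7 mice, mouse 4 being the exception, and 2 Nrf2 libraries, 4 and 5, stood well inside the control range. The fitted log2 fold change was -0.95 (SE 0.44, 95% interval -1.97 to 0.06, adjusted p 0.301). The exact sign-flip p was 0.0625 on CPM and 0.109 with TMM scaling. Without mouse 4 it was -1.32 with an adjusted p of 0.0205, and without mice 3 and 4 it was -1.29 with an adjusted p of 0.0741.

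The level of Snai2 rose with that of epithelial genes across libraries. Its r was 0.95 (rho 0.96) with the summed CPM of the 22 epithelial markers, Cdh1 and Krt19 among them, and 0.90 (rho 0.92) with that of the 14 surface epithelium genes, led by Krt15 and Krt12. Within control eyes these r were 0.89 and 0.88, and within Nrf2 eyes 0.99 and 0.93. With the surface epithelium level as a further term, the fitted change of Snai2 was -0.31 (SE 0.25, adjusted p 0.649). Its most similar genes were Gm4739, Tmem30b and Cdc42ep5 (r = 0.98 each). Vim and Snai2, both EMT markers, ran in opposite directions over the libraries (r = -0.79, rho = -0.84).

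Snai1 and Twist1, the zinc finger and the basic helix-loop-helix factor that most often stand for an EMT program, were barely detected. Snai1 had 0 to 31 counts per library, with a median of 0.424 CPM in control and 0.229 CPM in Nrf2 eyes, and Twist1 had 0 to 49 counts, with medians of 0.424 and 0.673 CPM. Snai1 was at 0 counts in control 6 and Nrf2 3, and Twist1 in Nrf2 2. The fitted changes were -0.55 for Snai1 (SE 1.07, 95% interval -2.99 to 1.88, adjusted p 0.826) and 0.05 for Twist1 (SE 0.86, 95% interval -1.92 to 2.01, adjusted p 0.985). A change of 1 on the log2 scale in either direction lies inside both intervals and was not detectable here. The sign of the Snai1 change turned without mouse 3, and that of Twist1 in voom, under total-count scaling and without mouse 1, 4, 5, 6 or 7. Ccdc80 (r = 0.88), Msto1 (0.88) and Igfbp4 (0.87) were most like Snai1, and Lage3 (0.83), Rnf217 (0.82) and Nek7 (0.81) most like Twist1, and for both genes these r rest on few counts.

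Zeb1 and Zeb2 encode a pair of related zinc finger and homeodomain repressors. The lowest, median and highest level of Zeb1 was 4.34, 12.5 and 20.3 CPM in control eyes and 6.18, 13.7 and 46.0 CPM in Nrf2 eyes. A single library, Nrf2 2, gave that highest value, against 17.8 CPM for the next, and pseudogenes took 2.55% of its counts where the other 13 libraries lay between 1.06% and 1.17%. The part of that library's composition in its Zeb1 level was not tested. The fitted log2 fold change of Zeb1 was 0.40 (SE 0.34, 95% interval -0.38 to 1.19, adjusted p 0.570), and 0.16 without mouse 2. Zeb2 had a lowest, median and highest level of 24.2, 42.3 and 55.1 CPM in control and 23.4, 34.2 and 44.7 CPM in Nrf2 eyes. On CPM it was lower in the Nrf2 eye of 6 of 7 mice, but with TMM scaling in 5 of 7. The fitted change of Zeb2 was -0.07 (SE 0.16, 95% interval -0.44 to 0.29, adjusted p 0.847), so of the transcription factors it was measured most precisely.

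Zeb1 and Zeb2 followed each other with r = 0.72 (rho = 0.60), and the summed CPM of 14 fibroblast genes with r = 0.78 and 0.80. The latter fell to 0.52 and 0.70 without the 2 libraries farthest from the median of that list. The fibroblast list, led by Fbln1 and Dcn, ran from 269.8 to 1010 CPM in control and from 515 to 1107 CPM in Nrf2 eyes. Most like Zeb1 were Orc3 (0.93), Zfp963 (0.92) and Thumpd2 (0.91), and most like Zeb2 were Macrod2 (0.92), Srfbp1 (0.91) and Nwd1 (0.91).

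**Figure D3:**
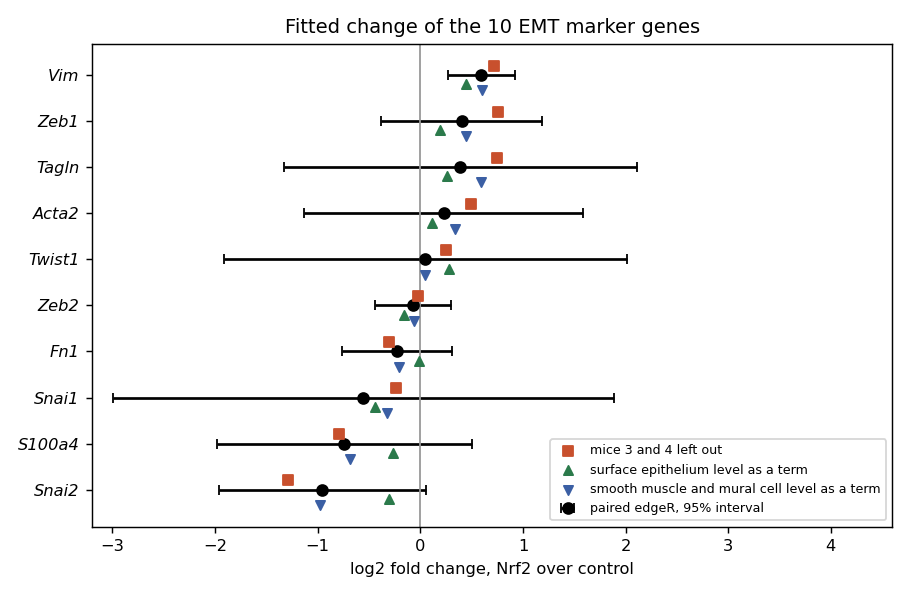
Fitted log2 fold change, Nrf2 over control, of the 10 genes in the paired edgeR fit (black points, bars are 95% intervals, 7 pairs). Coloured marks are the fitted values without mice 3 and 4, with surface epithelium level as a term, and with smooth muscle and mural cell level as a term. Every interval but that of Vim (0.27 to 0.92) spans 0, and the value of Snai2 moves from -0.95 to -0.31 with the surface epithelium term. Both marker terms were chosen after seeing the data, and the surface epithelium level cannot be fully separated from treatment.

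Levels between genes were compared per kilobase of the principal transcript. By median CPM per kilobase, the order in control eyes was Acta2 (254.9), Vim (80.3), Tagln (71.8), Snai2 (6.99), Fn1 (4.93), Zeb2 (4.63), S100a4 (3.19), Zeb1 (2.15), Snai1 (0.262) and Twist1 (0.261). In Nrf2 eyes it was Acta2 (257.8), Vim (103), Tagln (73.9), Fn1 (4.48), Zeb2 (3.75), Zeb1 (2.35), Snai2 (2.14), S100a4 (1.24), Twist1 (0.413) and Snai1 (0.141). The cytoskeletal genes thus stood at the top and Snai1 and Twist1 at the bottom in both groups. Most neighbours had ranges over libraries that overlapped. Only Zeb1 over Snai1 in control eyes and Tagln over Fn1 in Nrf2 eyes were neighbours whose ranges did not overlap. Within libraries, Acta2 also stood above Vim in all 7 control libraries, and S100a4 above Twist1 in all 7 Nrf2 libraries. Other neighbours with overlapping ranges kept their order in 3 to 6 libraries of a group. Snai2 held rank 4 in control and rank 7 in Nrf2 eyes, but its range overlapped those of its neighbours in both.

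Other genes of the EMT program, taken from lists written with earlier results of these data known, gave 3 calls that were higher and 1 that was lower among 5 lists. In the same paired edgeR test, 2.94% of all genes were called higher and 0.491% lower, and 18.1% had an unadjusted p under 0.05. Among 8 tested of 10 other EMT transcription factors, 0 were called (0 at an unadjusted p under 0.05, 0 in DESeq2 and 0 in voom), and all 8 fitted values were below 0, with a median of -0.21. Without mice 3 and 4, 1 was called, Foxq1, lower (-1.80, adjusted p 0.0475). The list includes Tcf4 (-0.21, adjusted p 0.674) and Sox4 (-0.17, adjusted p 0.549). Among 20 genes of mesenchymal adhesion and matrix, 0 were called (4 at an unadjusted p under 0.05, 3 in DESeq2 and 4 in voom), with a median of 0.01. The collagen-binding protein gene Sparc was at 0.02 (adjusted p 0.979) and the thrombospondin gene Thbs1 at 0.33 (adjusted p 0.579). Among 36 genes of TGF beta and BMP signalling, the pathways that most often induce EMT, 0 were called (3 at an unadjusted p under 0.05, 1 in DESeq2 and 1 in voom) and the median was -0.09. Ltbp3, which holds latent TGF beta in the matrix, was at 0.23 (adjusted p 0.471), and Id3, a target of BMP signalling, at -0.28 (adjusted p 0.545).

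The called genes were in the cytoskeletal and the mechanical response lists. Of 16 cytoskeletal genes, with a median of -0.09, 1 was called, Nes, which encodes nestin, an intermediate filament protein of progenitor and reactive cells that assembles with vimentin. Its lowest, median and highest level was 5.09, 6.63 and 11.3 CPM in control and 11.9, 23.4 and 42.2 CPM in Nrf2 eyes, with no overlap. All 7 mice had more Nes in the Nrf2 eye, and the fitted change was 1.94 (SE 0.28, adjusted p 0.0129), or 2.26 (adjusted p 0.0112) without mice 3 and 4. Without those mice Tpm4 and Tagln2 were also called, both lower (-0.64 and -1.32). The gamma-actin gene Actg1 was at -0.36 (adjusted p 0.445) and the alpha-actinin gene Actn4 at -0.64 (adjusted p 0.437).

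Of 14 tested targets and regulators of YAP and serum response factor, with a median of -0.10, 3 were called. Ccn2 (connective tissue growth factor), a target of YAP and of TGF beta, was higher in 7 of 7 mice, at 46.3, 95.3 and 159.7 CPM in control and 144.8, 225.8 and 325 CPM in Nrf2 eyes, a fitted change of 1.21 (SE 0.25, adjusted p 0.0402). Ccn1, its close relative, rose by 0.64 (SE 0.14, adjusted p 0.0423), in 6 of 7 mice on CPM, and was not called without the term for mouse (adjusted p 0.151). Egr1, an immediate early target of serum response factor, was lower in 7 of 7 mice, with a fitted change of -1.36 (SE 0.27, adjusted p 0.0348, and 0.103 without the term for mouse). The calls on Ccn2, Ccn1 and Egr1 each had an adjusted p over 0.05 in 6 of the 7 fits that left out 1 mouse. Without mice 3 and 4 the adjusted p was 0.0308, 0.0259 and 0.0579 in turn, and with the surface epithelium term it was 0.106, 0.115 and 0.0927. Nes lost its call in 1 of the 7 fits.

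**Figure D4:**
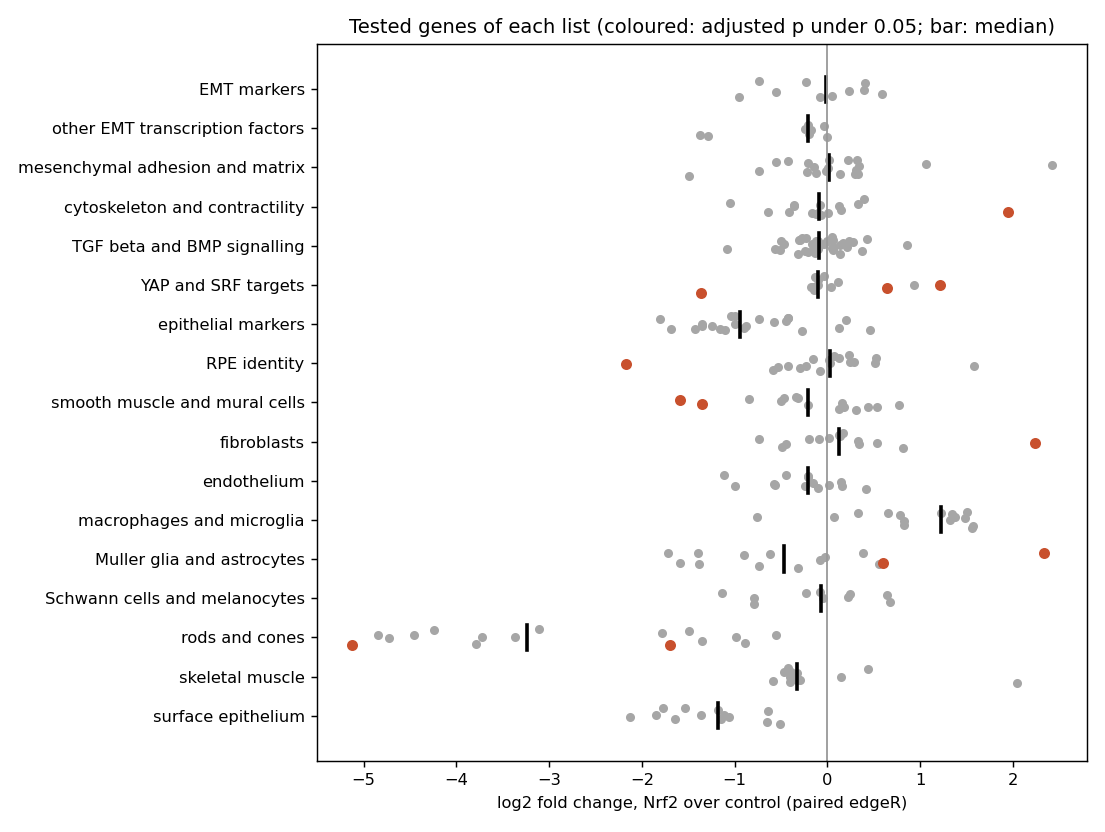
Fitted log2 fold change, Nrf2 over control, of every tested gene of each list. Coloured points had an adjusted p under 0.05 in the paired edgeR test, and black bars are list medians. The EMT markers centre near 0 with no coloured point, while epithelial markers (median -0.94) and surface epithelium (median -1.18) lie mostly below 0 without a called gene.

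On the epithelial side, 0 of 22 epithelial markers were called (4 at an unadjusted p under 0.05, 2 in DESeq2 and 3 in voom), although 19 of the 22 fitted values were below 0 and the median was -0.94. Krt19, the most abundant, had medians of 1164 CPM in control and 211 CPM in Nrf2 eyes (log2 fold change -1.80, adjusted p 0.251, or -2.13 and 0.0398 without mice 3 and 4), and Krt18 medians of 561 and 516 CPM (0.12, adjusted p 0.755). The other marker called without those mice was Cldn3, lower (-2.25, adjusted p 0.0443). The list summed to between 2319 and 8099 CPM in control and between 1791 and 4442 CPM in Nrf2 eyes, lower in 6 of 7 mice, the same count as for the surface epithelium list. In that list 0 of 13 tested genes were called (3 at an unadjusted p under 0.05, 5 in DESeq2 and 3 in voom), all 13 fitted values were below 0, and Krt15 and Krt12 were its most abundant. Without mice 3 and 4, 3 were called, Krt13, Krt14 and Krt4, all lower. Of 18 genes of RPE identity, with a median of 0.03, 1 was called. This was Rpe65, the isomerase of the visual cycle, lower in 7 of 7 mice at -2.17 (SE 0.37, adjusted p 0.0199), with an adjusted p over 0.05 in 5 of the 7 fits that left out 1 mouse. The retinoid-binding opsin gene Rgr was at -0.53 (adjusted p 0.570) and the transthyretin gene Ttr at 1.58 (adjusted p 0.104).

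Among markers of other cells of the eyecup that express EMT genes, the smooth muscle and mural list had 2 of 15 tested genes called, both lower in 7 of 7 mice. They were the pericyte genes Rgs5 (-1.35, adjusted p 0.0407) and Kcnj8 (-1.59, adjusted p 0.0336), whereas Myh11 was at 0.44 (adjusted p 0.745) and Smtn at 0.12 (adjusted p 0.924). Neither Rgs5 nor Kcnj8 was called without mice 3 and 4 (adjusted p 0.0986 and 0.0501) or in 6 and 5, in turn, of the 7 fits that left out 1 mouse, and Rgs5 was not called without the term for mouse (adjusted p 0.145). Of 14 fibroblast genes, 1 was called, the collagen gene Col6a3, higher in 7 of 7 mice (2.24, adjusted p 0.00936), with Fbln1 at -0.45 (adjusted p 0.435) and Dcn at 0.54 (adjusted p 0.672). No gene was called among 14 endothelial genes (2 at an unadjusted p under 0.05, 1 in DESeq2 and 1 in voom, median -0.21), led by Ramp2 and Plvap, although Flt1 was called, lower, without mice 3 and 4 (-1.26, adjusted p 0.0433). Nor was any called among 15 genes of macrophages and microglia (2 at an unadjusted p under 0.05, 3 in DESeq2 and 0 in voom), where 14 fitted values were above 0 and the median was 1.23. Their most abundant gene, Csf1r, was the 1 below 0 (-0.76, adjusted p 0.140), and C1qa was at 1.51 (adjusted p 0.304). The list of Müller glia and astrocytes had 2 of 14 called, Prdx6 and Dbi, both higher, and a median of -0.47. Without mice 3 and 4, Dbi was not called (adjusted p 0.0536) and Glul was (0.63, adjusted p 0.0477). Prdx6, an antioxidant enzyme that many cell types express, was with Apoe its most abundant gene. Of 16 rod and cone genes 2 were called, Opn1sw and Gnat2, both lower, and all 16 fitted values were below 0 (median -3.24), with 12 at an unadjusted p under 0.05, 11 called in DESeq2 and 13 in voom. Without mice 3 and 4, Opn1sw was not called (adjusted p 0.109). No gene was called among 13 tested skeletal muscle genes or 10 tested genes of Schwann cells and melanocytes, with 0 of either at an unadjusted p under 0.05, in DESeq2 or in voom, but Erbb3 of the latter was called, lower, without mice 3 and 4 (-1.69, adjusted p 0.0424).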

How the data were processed

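RPE RNA from 7 rd1 mice was amplified by the authors from polyadenylated RNA with a low-input kit, and libraries were sequenced in more than 1 run, without a label of the run for each library. The authors deposited 1 table of estimated counts, given as whole numbers per gene without normalization between libraries. The submitters' processing notes name FastQC and Salmon 0.9.1, and the study's methods name mm10 with Ensembl annotation. That the table came from Salmon rather than from the read counter also named there was not stated. Reads were amplified without molecular identifiers, so counts are not counts of molecules. All 14 columns were matched to libraries by their labels, 0 columns were left over, and all 7 pairs entered the fit. The study's methods state fewer pairs for this comparison and do not say which was left out.

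Of 34452 mouse genes, 34401 matched GENCODE M21 (GRCm38), which gave positions and the transcript length used for levels per kilobase. The vector transcript stayed in library totals and out of the calls. Differences were tested in edgeR 4.0.16 (glmQLFit and glmQLFTest, R 4.3.3) on a design of mouse plus treatment, after TMM normalization and filterByExpr with a minimum count of 10, and Benjamini-Hochberg adjustment over all 16289 genes tested. Log2 CPM used a prior count of 2. Alternatives were limma 3.58.1 (voom), DESeq2 1.42.0, other scalings and filters, thinned counts, mice left out, and terms for marker levels, of which total-count scaling, the marker terms and TMM scaling of the sign-flip test were chosen after seeing the data. Counts were also simulated for the same pairs from the mean and dispersion of each gene. They had no effect of mouse and no differences in tissue composition between libraries. There, 11 of 47 genes changed by 1 on the log2 scale were called, and 36 of 49 changed by 2. These shares need not hold for the real data.

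The labels number both eyes by animal, which is the source of the pairing. Deviations from group means correlated between the eyes of a mouse at -0.02, 0.12, 0.07, -0.36, 0.36, -0.21 and 0.17 in mice 1 to 7 (14178 genes). The 10 genes and all lists were chosen with earlier results of these data known. Named were the 10 genes, list members past the threshold or the 2 most abundant, and the 3 genes with the highest r to each of the 10, among genes with a mean of at least 5 CPM. A single one of these like genes is not reported here. Genes called in marker lists of other cells, and those called without mice 3 and 4, were named after their values were seen. Promoter sequences are from RefSeq.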

Additional observations from a re-analysis of the deposited data

Results flagged for a closer look

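Of 20 groups of 7 libraries examined (10 genes in control and in Nrf2 eyes), 3 held a library whose gap to its nearest neighbour was large against the whole range of the group (Dixon's test at its 95% critical value), and chance alone marks about 1 group in 20. Vim in control 6 stood at 103.8 CPM, the lowest control value. Zeb1 in Nrf2 2 stood at 46.0 CPM, the highest Nrf2 value. Twist1 in the library labelled control 3 stood at 1.48 CPM, the highest control value, from 49 counts.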

How the results depend on the processing

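Of 16289 genes, 559 differed. There were 1100 without the replicate block, 347 of 29137 without a low-count filter, 1943 in DESeq2, 2590 in voom, 316 with the surface epithelium term and 56 at an adjusted p under 0.01. Leaving out 1 mouse gave 111 (mouse 7) to 1998 (mouse 4), with 978 higher and 1020 lower in the latter, and total-count scaling gave 314 higher and 198 lower. Of the 10 EMT markers, 0 differed. There was 1 without the replicate block, 1 in DESeq2, 1 in voom and 1 at an adjusted p under 0.1, always Vim, and 0 to 2 with a mouse left out (without mouse 4, Vim higher and Snai2 lower). The EMT-related lists and RPE identity together gave 5 calls. They gave 13 in DESeq2, 9 without mice 3 and 4, and 1 to 30 with a mouse left out. The sign-flip test gave 0 of 10 on CPM and 1 with TMM scaling. The cause of these shifts was not tested.

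Changes of sign occurred in 4 of the 10 genes. Acta2 was at -0.50 and Tagln at -0.55 in voom, and with a mouse left out Acta2 ran from -0.22 to 0.60 (-0.09 without mouse 2) and Tagln from -0.15 to 0.84 (-0.00083 without mouse 2). Snai1 ran from -1.13 to 0.04 (0.0363 without mouse 3). Twist1 ran from -0.31 to 0.52, and was at -0.10 in voom and -0.091 under total-count scaling. Vim, Fn1, Snai2, Zeb1, Zeb2 and S100a4 kept their sign under all 19 alternatives. Snai1 could not be fitted in thinned counts. Snai1, Twist1 and S100a4 had the fewest counts, and the part of counting error in their intervals was not computed.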
